A study of Homo sapiens with 18 samples.

Results

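The genes described here are the forkhead factors FOXO1, FOXO3 and FOXO4 and a set of transcripts held down by AKT signaling, IRS1, IRS2, PIK3IP1, CCNG2, TXNIP, SESN3 and PIK3R1. They were chosen by name, as genes expected to rise when PI3K and AKT signaling falls, with earlier results of these data known. Each of the 10 was named by 1 array feature that named no other gene. All 10 passed the filter on low values and stood among 16336 genes tested. The experiment used HCC4006, an established human lung adenocarcinoma cell line with a mutant EGFR. Cells were transfected with a non-targeting control siRNA (NTC), a Notch1 siRNA (N1) or a Notch3 siRNA (N3) and then treated with DMSO, the vehicle, or with erlotinib, an inhibitor of the EGFR kinase, at 0.1 µM for 5 days by the design text. Total RNA was read on 18 human transcriptome arrays, 3 for each of the 6 groups, and the control groups shared the transfection, the vehicle and the medium with serum. All arrays came from this 1 cell line, and nothing in the labels states that replicate arrays were separate cultures, so the spread and the p-values may cover technical variation only.

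Growth factor receptors such as EGFR activate PI3K, which makes a membrane lipid that recruits and activates AKT. Active AKT phosphorylates the FOXO factors, which are then held in the cytoplasm, and when AKT activity falls FOXO proteins enter the nucleus and switch on genes of cell-cycle arrest, stress defense and insulin signaling. Several of these targets feed back on the pathway. IRS1 and IRS2 are the adaptors that link the insulin and IGF1 receptors to PI3K, PIK3R1 encodes the p85α regulatory subunit of PI3K, and PIK3IP1 is a membrane protein that binds and inhibits the catalytic subunit. CCNG2 encodes cyclin G2, an unconventional cyclin linked to cell-cycle arrest, SESN3 encodes a sestrin that restrains mTORC1 and limits oxidative stress, and TXNIP binds thioredoxin and curbs glucose uptake. TXNIP is also a known target of glucose-sensing MondoA and ChREBP, which bind paired E-box-like elements.

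Values are log2 expression values, so a difference of 1 is a doubling, and levels of different genes were not compared because probes differ in brightness. Array medians lay between 4.84 and 5.01. The siRNA targets followed their labels in DMSO: NOTCH1 was 0.30 lower after N1 siRNA (adjusted p = 0.000291) and NOTCH3 0.57 lower after N3 siRNA (adjusted p = 5.75e-06), and in erlotinib NOTCH3 was again 0.57 lower (adjusted p = 4.11e-06) while NOTCH1 was 0.08 lower, which did not pass (adjusted p = 0.214). NOTCH3 was 0.25 higher after N1 siRNA in erlotinib (adjusted p = 0.00818). Erlotinib raised NOTCH3 by 0.35 in N1 cells (adjusted p = 0.000105) and lowered NOTCH1 by 0.18 in NTC cells (adjusted p = 0.00222). DUSP6, an ERK pathway feedback phosphatase used as a check of EGFR inhibition, fell by 4.32 with erlotinib in NTC cells (adjusted p = 1.56e-16). It fell by 4.27 in N1 cells (adjusted p = 1.93e-16) and by 4.99 in N3 cells (adjusted p = 1e-17). N3 siRNA raised DUSP6 by 0.69 in DMSO (adjusted p = 1.28e-05), and its effect in erlotinib minus that in DMSO was -0.67 (adjusted p = 0.00135). In erlotinib the DUSP6 means were 4.80 (NTC), 4.81 (N1) and 4.82 (N3), all below the lowest erlotinib array median, 4.94. Values this low may not resolve further differences. The larger fall in N3 cells and the -0.67 thus rest on the DMSO levels, 9.12 in NTC and 9.82 in N3. All 6 epithelial markers were present, with group means of 9.31 to 11.04. With erlotinib 0 of them passed as higher and 3 as lower in NTC cells, 1 and 4 in N1 cells, and 1 and 3 in N3 cells. The shares of all genes higher and lower were 24.6% and 25.4% in NTC, 31.7% and 23.7% in N1, and 24.9% and 27.7% in N3 cells. The leukocyte genes PTPRC (2.76) and CD3E (4.31) and the endothelial gene PECAM1 (3.40) lay below the filter, with means over all arrays in parentheses. The other markers of those lists that were tested were CD14 (4.92), COL1A1 (6.51), PDGFRB (5.16) and VWF (5.26). CD14, a monocyte gene, was lower with erlotinib in NTC, N1 and N3 cells (-0.51, -0.36 and -0.84) and 0.31 higher with N3 siRNA in DMSO (adjusted p = 0.00255). Its erlotinib means of 4.62 (NTC), 4.69 (N1) and 4.60 (N3) also lay below 4.94, so the sizes of these falls are uncertain. COL1A1 was 0.19 higher with erlotinib in N1 cells. The part of all these markers in the values below was not tested. Replicate numbers ran from 1 to 3 in 5 groups and from 4 to 6 in N3 erlotinib, so in every comparison that includes this group a separate handling of its arrays cannot be told apart from the siRNA or the drug.

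The gene starts carried few exact matches to the binding letters of the factors above. In RefSeq's annotation of GRCh38.p14 the 250 bases before each start were searched on both strands, 18 starts for the 10 genes and 35116 in all, for the FOXO consensus core GTAAACA or its reverse complement TGTTTAC, the insulin response core CAAAACA or TGTTTTG, the E-box CACGTG, and the paired carbohydrate response element, CACGNG at both ends with 5 free bases between, or its reverse complement. The paired element can contain the E-box letters, and it was added after the expression values had been seen. These matches stood in 2.98%, 4.3%, 6.34% and 0.0456% of all starts, respectively. The 3 sequences below are shown because, of the 10 genes, TXNIP, IRS2 and CCNG2 alone had a match. Capitals mark the matched letters, and each runs 5′ to 3′ on the gene's strand. The TXNIP window is chr1:145996580-145996829 (minus strand), with the FOXO core 124 bases and the paired element 88 bases before the start. The IRS2 window is chr13:109786584-109786833 (minus strand), with the insulin response core 40 bases before the start. That of CCNG2 is chr4:77156957-77157206 (plus strand), with the E-box 30 bases before the start.
TXNIP: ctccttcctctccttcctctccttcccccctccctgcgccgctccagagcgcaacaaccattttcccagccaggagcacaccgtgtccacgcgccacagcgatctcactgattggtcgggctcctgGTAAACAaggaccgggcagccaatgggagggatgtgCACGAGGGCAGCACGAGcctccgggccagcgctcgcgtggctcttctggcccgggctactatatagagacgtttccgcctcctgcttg
IRS2: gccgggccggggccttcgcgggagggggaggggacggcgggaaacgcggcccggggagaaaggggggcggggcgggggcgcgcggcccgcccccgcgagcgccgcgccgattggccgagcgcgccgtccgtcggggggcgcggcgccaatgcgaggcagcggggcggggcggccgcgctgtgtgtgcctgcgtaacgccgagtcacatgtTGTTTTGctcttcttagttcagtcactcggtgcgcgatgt
CCNG2: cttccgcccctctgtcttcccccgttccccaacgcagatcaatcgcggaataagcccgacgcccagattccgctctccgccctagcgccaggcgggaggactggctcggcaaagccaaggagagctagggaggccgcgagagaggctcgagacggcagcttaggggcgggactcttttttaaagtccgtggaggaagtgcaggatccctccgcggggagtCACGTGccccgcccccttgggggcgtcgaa
No match to these letters lay in the searched windows of FOXO1, FOXO3, FOXO4, IRS1, PIK3IP1, SESN3 or PIK3R1, or at the other TXNIP start. ARRDC4, a relative of TXNIP described below, had an E-box 210 bases before its start and no paired element. A match describes the letters only.

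Erlotinib raised 6 of the 10 genes in NTC cells, FOXO3, FOXO4, PIK3IP1, CCNG2, SESN3 and PIK3R1, by 1.16-fold to 1.66-fold, and lowered none at an adjusted p under 0.05. FOXO1, IRS1, IRS2 and TXNIP did not pass. Erlotinib changed much of the transcriptome, and 49.9% of all genes tested passed in this comparison (24.6% of all genes were higher and 25.4% lower). The median of the 10 genes was 0.29 and that of all genes -0.02. Since the genes were chosen with earlier results of these data known, this contrast is a description only. None of the 10 met the stricter thresholds of the study's methods (an unadjusted p below 5e-04 together with at least a 2-fold change), which 3.65% of all genes met. In bulk RNA a shift in the makeup of the culture and a change of RNA per cell cannot be told apart, and the 12 proliferation genes listed for context, among them MKI67 and PLK1, all fell in the same comparison (median -2.62). Their part in the changes of the 10 genes was not tested.

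**Figure D1:**
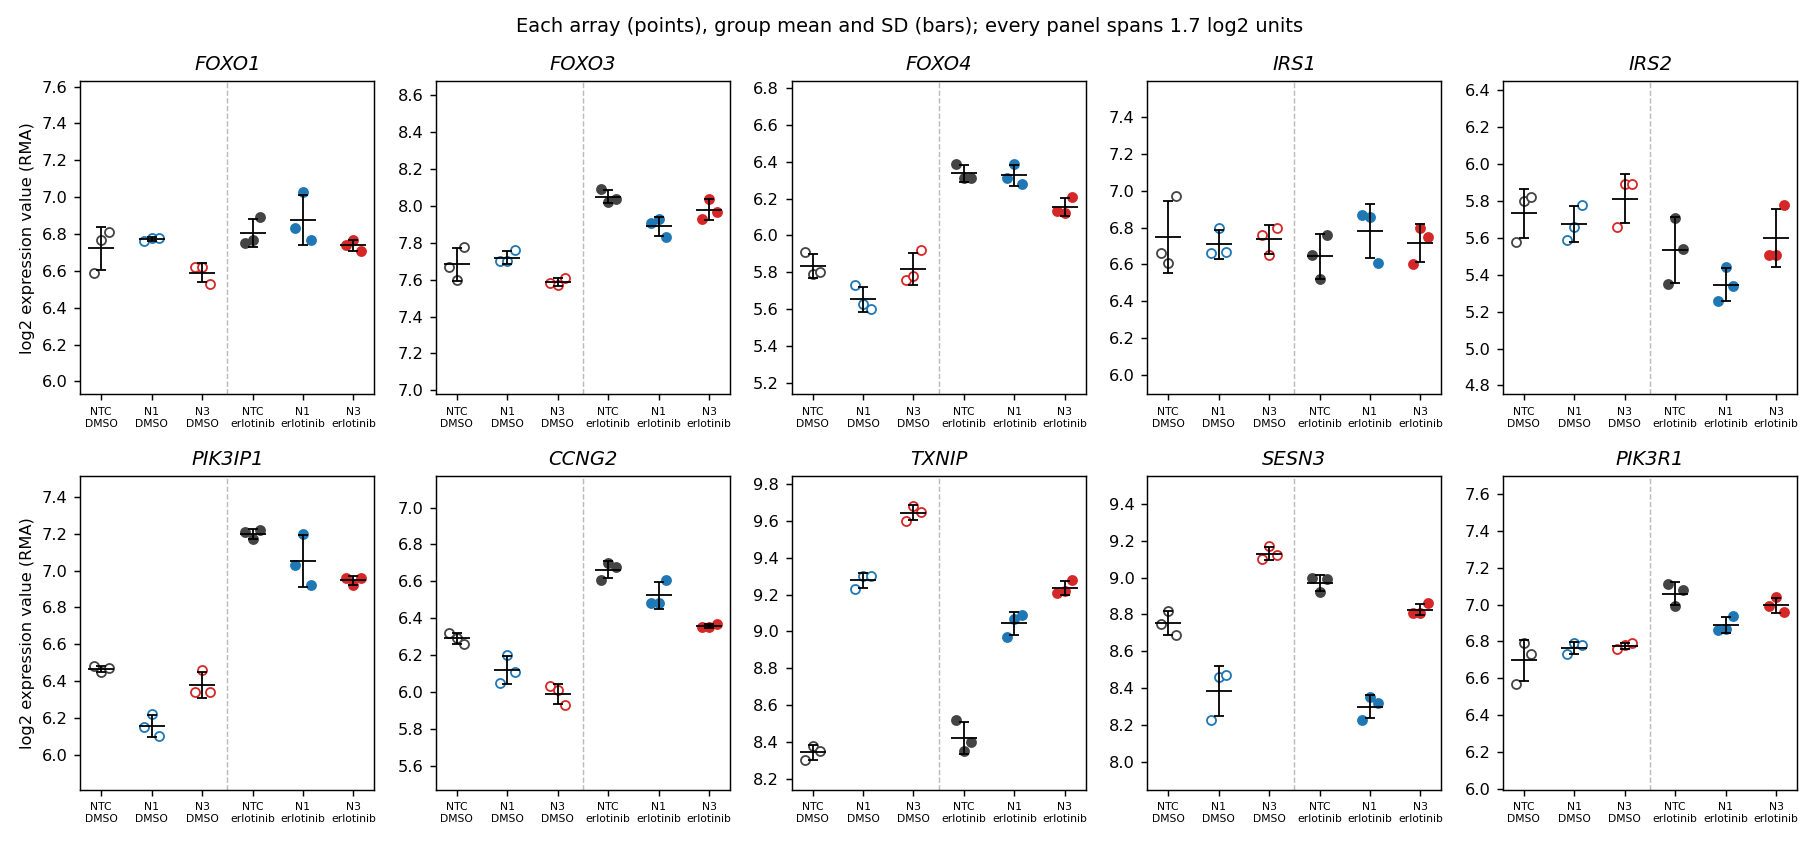
Log2 expression value of each gene on each array (points, open for DMSO and filled for erlotinib), with the group mean and SD (bars), by siRNA and treatment, 3 arrays a group. FOXO3, FOXO4, PIK3IP1, CCNG2 and PIK3R1 sit higher in all erlotinib arrays than in all DMSO arrays, which was not counted over all genes. TXNIP is ordered by siRNA, from 8.30 on the lowest NTC DMSO array to 9.68 on the highest N3 DMSO array.

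Among the factors, FOXO4 had the largest erlotinib change in NTC and N1 cells, and FOXO3 in N3 cells. FOXO4 read 5.91, 5.79 and 5.80 on the NTC DMSO arrays and 6.39, 6.31 and 6.31 on the NTC erlotinib arrays. Every erlotinib array was above every DMSO array, and the means rose from 5.83 ± 0.07 to 6.34 ± 0.05 (SD, n = 3), a log2 change of 0.50 (SE 0.05, adjusted p = 4.39e-07). In N1 cells FOXO4 read 5.73, 5.63 and 5.60 in DMSO and 6.31, 6.39 and 6.28 in erlotinib, a change of 0.67 (adjusted p = 1.33e-08). In N3 cells it read 5.76, 5.78 and 5.92 in DMSO and 6.13, 6.12 and 6.21 in erlotinib, a change of 0.33 (adjusted p = 4.29e-05). The DMSO and erlotinib arrays did not overlap under any siRNA, and neither difference of the erlotinib effect from that in NTC cells passed: 0.17 with N1 (95% interval 0.01 to 0.33, adjusted p = 0.125) and -0.17 with N3 (-0.33 to -0.01, adjusted p = 0.251). The N3 difference passed with the alternative of quantile normalization (adjusted p = 0.0365).

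FOXO3, the factor most often linked to arrest and to BIM induction, rose under all 3 siRNAs. It read 7.67, 7.60 and 7.78 in NTC DMSO and 8.09, 8.02 and 8.04 in NTC erlotinib, with no overlap and a change of 0.37 (SE 0.05, adjusted p = 4.54e-06). In N1 cells the arrays read 7.70, 7.70 and 7.76 in DMSO against 7.91, 7.93 and 7.83 in erlotinib, again without overlap. The change there was 0.17 (adjusted p = 0.00599), and it did not pass once each array was centred on its median (adjusted p = 0.312, the highest of a range from 0.00101 over the alternatives). N3 cells gave 7.58, 7.57 and 7.61 in DMSO and 7.93, 8.04 and 7.97 in erlotinib, a change of 0.39 (adjusted p = 1.74e-06).

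FOXO1 kept a narrow range. NTC DMSO arrays read 6.59, 6.77 and 6.81 and NTC erlotinib arrays 6.75, 6.77 and 6.89, so the groups overlapped (change 0.08, 95% interval -0.06 to 0.22, adjusted p = 0.341). Its 6 group means spanned 0.29 in all, from 6.59 ± 0.05 in N3 DMSO to 6.88 ± 0.14 in N1 erlotinib, and no comparison among the 11 passed for FOXO1. The erlotinib change was 0.10 in N1 cells (adjusted p = 0.186) and 0.15 in N3 cells (adjusted p = 0.0648). The latter passed in 4 of 25 alternatives (here and in later counts those other than the methods' thresholds), with adjusted p down to 0.0149. N3 against N1 passed in 6 of 26 in DMSO (change -0.18, adjusted p = 0.0645, down to 0.0264). In erlotinib it passed in 1 of 25 (change -0.14, adjusted p = 0.116, down to 0.0403).

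PIK3IP1, the PI3K inhibitor, rose more with erlotinib than any other gene of the set. It read 6.48, 6.45 and 6.47 on the NTC DMSO arrays and 7.21, 7.17 and 7.22 on the NTC erlotinib arrays. The groups lay far apart for their spread, with means of 6.47 ± 0.02 and 7.20 ± 0.03 (SD, n = 3) and a change of 0.73 (SE 0.06, 1.66-fold, adjusted p = 9.88e-09), rank 490 of 16336 by fold change. N1 cells read 6.15, 6.22 and 6.10 in DMSO and 7.03, 7.20 and 6.92 in erlotinib, a change of 0.89 (1.86-fold, adjusted p = 8.54e-10). N3 cells read 6.34, 6.46 and 6.34 in DMSO and 6.96, 6.92 and 6.96 in erlotinib, a change of 0.57 (adjusted p = 2.14e-07). All 9 erlotinib arrays were thus above all 9 DMSO arrays, as they also were for FOXO3, FOXO4, CCNG2 and PIK3R1. How many of all genes separate this way was not counted.

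PIK3R1 rose in NTC and N3 cells. NTC DMSO arrays read 6.57, 6.79 and 6.73 and NTC erlotinib arrays 7.11, 6.99 and 7.08, with no overlap and a change of 0.36 (SE 0.05, adjusted p = 1.2e-05). N3 arrays read 6.76, 6.78 and 6.79 in DMSO and 6.99, 7.04 and 6.96 in erlotinib. That change was 0.22 (adjusted p = 0.00146), which did not pass with median-centred arrays (adjusted p = 0.163, over a range from 0.000248). In N1 cells the arrays read 6.73, 6.79 and 6.78 in DMSO and 6.86, 6.87 and 6.94 in erlotinib, without overlap, yet the change of 0.12 (95% interval 0.02 to 0.23) missed the threshold (adjusted p = 0.0506). That change passed in 5 of 26 alternatives (adjusted p down to 0.0187). The erlotinib effect on PIK3R1 was 0.24 smaller in N1 than in NTC cells (SE 0.07, adjusted p = 0.0377), a call lost in 12 of 26 alternatives, and the difference for N3 cells was -0.14 (adjusted p = 0.327).

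The receptor adaptors did not rise. IRS2 read 5.58, 5.80 and 5.82 in NTC DMSO and 5.35, 5.71 and 5.54 in NTC erlotinib, with overlap (change -0.20, 95% interval -0.41 to 0.01, adjusted p = 0.108). This IRS2 change passed with a replicate block over 15 arrays (adjusted p = 0.00952) and without NTC DMSO replicate 1 (0.0387) or NTC erlotinib replicate 2 (0.0281), over a range of alternatives up to 0.431. In N1 cells it fell, from 5.59, 5.66 and 5.78 in DMSO to 5.26, 5.44 and 5.34 in erlotinib, and no erlotinib array reached a DMSO array. That change was -0.33 (adjusted p = 0.00963). In N3 cells the values were 5.66, 5.89 and 5.89 in DMSO and 5.51, 5.51 and 5.78 in erlotinib, a change of -0.21 that did not pass (adjusted p = 0.0827). Under 4 of 24 alternatives the IRS2 change in N3 cells passed (adjusted p down to 0.0148). IRS1 had the smallest span of the 10 genes, 0.14 over the 6 group means against a largest group SD of 0.20, and its arrays ranged from 6.52 to 6.97. Its erlotinib changes of -0.10, 0.07 and -0.02 in NTC, N1 and N3 cells did not pass (adjusted p = 0.396, 0.53 and 0.884).

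CCNG2 rose by nearly the same amount under every siRNA. It read 6.32, 6.29 and 6.26 in NTC DMSO and 6.61, 6.70 and 6.68 in NTC erlotinib, a change of 0.37 (SE 0.05, 1.30-fold, adjusted p = 3.95e-06). N1 arrays read 6.05, 6.20 and 6.11 in DMSO and 6.48, 6.48 and 6.61 in erlotinib, and N3 arrays 6.03, 6.01 and 5.93 in DMSO and 6.35, 6.35 and 6.37 in erlotinib. Those groups did not overlap either, with changes of 0.40 (adjusted p = 1.69e-06) and 0.37 (adjusted p = 4.27e-06). The erlotinib effect differed from that in NTC cells by 0.03 in N1 cells (95% interval -0.11 to 0.17) and by -0.01 in N3 cells (-0.15 to 0.14).

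Across siRNAs, then, the counts with erlotinib were 6 higher and 0 lower in NTC cells, 4 higher (FOXO3, FOXO4, PIK3IP1, CCNG2) and 2 lower (IRS2, TXNIP) in N1 cells, and 5 higher (FOXO3, FOXO4, PIK3IP1, CCNG2, PIK3R1) and 2 lower (TXNIP, SESN3) in N3 cells. Of all genes tested, 55.4% passed in N1 cells (31.7% higher, 23.7% lower) and 52.6% in N3 cells (24.9% higher, 27.7% lower). The median change of the 10 genes was 0.11 in N1 cells beside 0.08 for all genes, and 0.19 in N3 cells beside 0.01. Counted in either direction, 6, 6 and 7 of the 10 genes passed in NTC, N1 and N3 cells, near the shares of all genes.

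**Figure D2:**
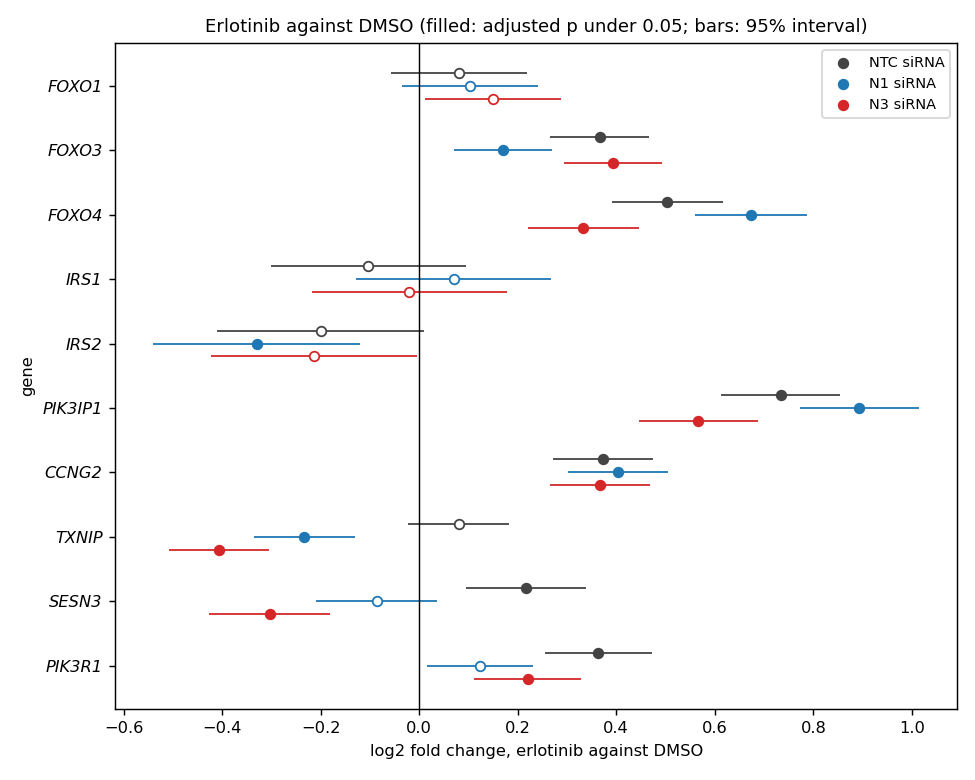
Log2 fold change of erlotinib against DMSO for each gene under NTC, N1 and N3 siRNA, with 95% intervals, filled where the adjusted p was under 0.05. FOXO3, FOXO4, PIK3IP1 and CCNG2 lie to the right of 0 under all 3 siRNAs, and SESN3 runs from 0.22 in NTC to -0.30 in N3 cells.

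TXNIP was higher after both siRNAs in both treatments, and SESN3 was lower after N1 siRNA in both. TXNIP, which binds thioredoxin, read 8.30, 8.38 and 8.35 in NTC DMSO, 9.23, 9.30 and 9.30 in N1 DMSO and 9.60, 9.68 and 9.65 in N3 DMSO. The 3 groups formed separate bands, N3 above N1 above NTC. The change was 0.93 after N1 siRNA (SE 0.05, 1.91-fold, adjusted p = 3.58e-09), rank 35 of 16336, and 1.30 after N3 siRNA (SE 0.05, 2.46-fold, adjusted p = 3.22e-11), rank 15. The N3 change was the only one of the 10 genes in any comparison to meet the methods' thresholds, which 0.251% of all genes met there. The share of all genes past them was 3.2% and 4.16% for erlotinib in N1 and N3 cells, 0.184% for N1 in DMSO, 0.0918% and 0.141% for N1 and N3 in erlotinib, 0.159% and 0.331% for N3 against N1 in DMSO and erlotinib, and 0.0918% and 0.122% for the N1 and N3 differences between treatments. N3 exceeded N1 by 0.37 in DMSO (adjusted p = 4.26e-05).

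In erlotinib the TXNIP arrays read 8.52, 8.35 and 8.40 with NTC, 8.97, 9.07 and 9.09 with N1 and 9.21, 9.22 and 9.28 with N3 siRNA. The order was kept and the bands lay closer. The change was 0.62 after N1 (1.54-fold, adjusted p = 2.16e-07) and 0.81 after N3 siRNA (1.76-fold, adjusted p = 7.4e-09), with N3 above N1 by 0.19 (adjusted p = 0.00531). Erlotinib itself moved TXNIP by 0.08 in NTC cells (95% interval -0.02 to 0.18, adjusted p = 0.19), which passed only with quantile normalization (adjusted p = 0.029). With erlotinib TXNIP fell by 0.23 in N1 cells (adjusted p = 0.000591) and by 0.41 in N3 cells (adjusted p = 1.46e-06). Tested as differences, the siRNA effect was smaller in erlotinib than in DMSO by 0.31 for N1 (SE 0.07, adjusted p = 0.00848) and by 0.49 for N3 (SE 0.07, adjusted p = 0.000298). For both siRNAs the calls passed under every alternative run except the methods' thresholds.

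SESN3 moved in opposite directions after the 2 siRNAs in DMSO. NTC arrays read 8.75, 8.82 and 8.69, N1 arrays 8.23, 8.46 and 8.47 and N3 arrays 9.10, 9.17 and 9.12. None of these groups overlapped. Relative to NTC, N1 lowered SESN3 by 0.37 (SE 0.06, adjusted p = 0.000569) and N3 raised it by 0.38 (SE 0.06, adjusted p = 0.000245), and the direct contrast of N3 against N1 was 0.74 (1.67-fold, adjusted p = 1.42e-07).

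With erlotinib, SESN3 read 9.0, 8.92 and 8.99 in NTC, 8.23, 8.35 and 8.32 in N1 and 8.81, 8.81 and 8.86 in N3 cells. N1 arrays were the lowest, N3 arrays lay between, and NTC arrays were the highest. The N1 change was -0.67 (0.629-fold, adjusted p = 6.51e-07), which placed SESN3 at rank 37 from the bottom, whereas the N3 change of -0.14 did not pass (adjusted p = 0.101). The N3 change passed in 2 of 25 alternatives (adjusted p down to 0.0281). Erlotinib raised SESN3 by 0.22 in NTC cells (SE 0.06, adjusted p = 0.00459), a call lost with median-centred arrays (adjusted p = 0.0658, over a range from 0.000305), left it 0.09 lower in N1 cells (adjusted p = 0.21), and lowered it by 0.30 in N3 cells (adjusted p = 0.00025). The siRNA effect in erlotinib minus that in DMSO was -0.52 for N3 (SE 0.08, adjusted p = 0.000774), a call kept under all alternatives run except the methods' thresholds, and -0.30 for N1 (SE 0.08, adjusted p = 0.0243), a call lost in 7 of 26.

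Several of the genes raised by erlotinib were slightly lower after knockdown. In DMSO, N1 siRNA lowered PIK3IP1 by 0.31 (adjusted p = 0.00183), with all N1 arrays below all NTC arrays, FOXO4 by 0.18 (adjusted p = 0.0328) and CCNG2 by 0.17 (adjusted p = 0.0251), and N3 siRNA lowered CCNG2 by 0.30 (adjusted p = 0.000333). The calls for FOXO4 and CCNG2 after N1 siRNA were lost in 7 of 26 and 8 of 27 alternatives, with adjusted p up to 0.149 and 0.204. N1 in DMSO thus gave 1 gene higher and 4 lower where 14.7% of all genes passed (7.75% higher, 6.97% lower), and N3 gave 2 higher and 1 lower where 12% passed (7.24% higher, 4.8% lower). The medians of the 10 genes, -0.05 and -0.01, lay near those of all genes, -0.04 and -0.02.

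In erlotinib, N3 siRNA lowered CCNG2 by 0.31 (adjusted p = 0.000196), PIK3IP1 by 0.25 (adjusted p = 0.00462) and FOXO4 by 0.18 (adjusted p = 0.023). For these 3 genes every N3 array was below every NTC array, as was the case for SESN3, which did not pass. Such separation was not counted over all genes. The FOXO4 call was lost without NTC erlotinib replicate 1, N3 erlotinib replicate 4 or N3 erlotinib replicate 5 (adjusted p = 0.0985, 0.0821 and 0.0907, over a range from 0.0026). N1 siRNA lowered PIK3R1 by 0.17 (adjusted p = 0.0257), FOXO3 by 0.16 (adjusted p = 0.0235) and CCNG2 by 0.14 (adjusted p = 0.0462). Calls for the last 3 were lost in 6, 5 and 17 of 26 alternatives, with adjusted p up to 0.105, 0.0921 and 0.165. With TXNIP and SESN3 this made 1 higher and 4 lower for N1, where 21.1% of all genes passed (11.9% higher, 9.15% lower), and 1 higher and 3 lower for N3, where 18.5% passed (7.93% higher, 10.5% lower). The 12 proliferation genes moved with N3 siRNA in erlotinib, 11 of them lower (median -0.43), and their part in these values was not tested.

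Set against each other, N3 and N1 cells in DMSO differed in 4 of the 10 genes, all higher in N3: SESN3 and TXNIP as above, PIK3IP1 by 0.22 (adjusted p = 0.0116, lost in 2 of 26 alternatives, up to 0.0689) and FOXO4 by 0.17 (adjusted p = 0.0402), a call lost in 9 of 25 alternatives, with adjusted p up to 0.211. The PIK3IP1 call was lost without N1 DMSO replicate 3 or N3 DMSO replicate 2. Of all genes, 17.4% passed there (9.91% higher, 7.48% lower). In erlotinib 4 passed where 34.6% of all genes did (13.8% higher, 20.9% lower), SESN3 (0.53 higher, adjusted p = 4.24e-06) and TXNIP higher, and FOXO4 (-0.17, adjusted p = 0.0189) and CCNG2 (-0.17, adjusted p = 0.0124) lower in N3. The FOXO4 call was lost without N1 erlotinib replicate 2, N3 erlotinib replicate 4 or N3 erlotinib replicate 5 (3 of 24 alternatives, adjusted p up to 0.0924), and the CCNG2 call without N1 erlotinib replicate 3 (adjusted p = 0.0557, the highest of a range from 0.00646). Over the differences between treatments, 3 genes passed for N1, where 14.1% of all genes did (8.04% higher, 6.04% lower), and 2 for N3, where 5.91% did (1.63% higher, 4.27% lower), all 5 named above and all with a negative sign.

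**Figure D3:**
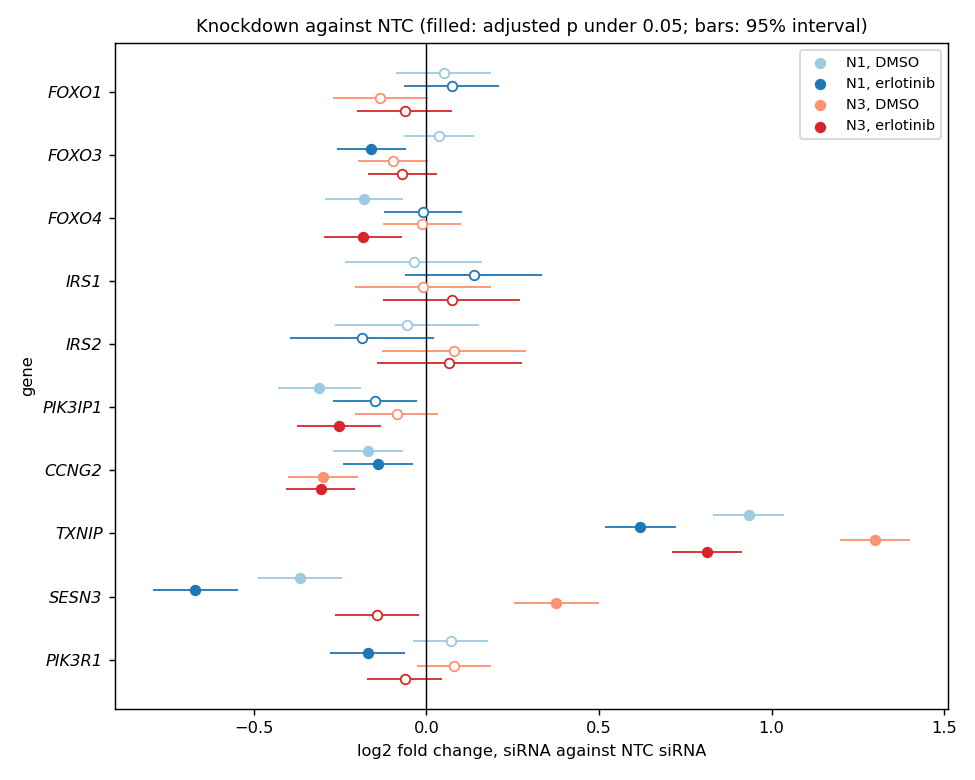
Log2 fold change of each knockdown against NTC for each gene in DMSO and in erlotinib, with 95% intervals, filled where the adjusted p was under 0.05. TXNIP lies between 0.62 and 1.30 in all 4 comparisons, and SESN3 is at -0.37 and -0.67 with N1 and at 0.38 and -0.14 with N3 siRNA.

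The 10 genes therefore did not share 1 pattern over the 18 arrays. FOXO4 and PIK3IP1 were the most alike pair, with a Pearson r of 0.970 over arrays and 0.991 over the 6 group means. CCNG2 followed PIK3IP1 with r = 0.871 and FOXO3 followed it with r = 0.854, while IRS2 ran against FOXO4 (r = -0.651). These correlations are descriptions, since arrays of a group share treatment and siRNA. Among 1174 genes whose group means spanned at least 1, or 1173 where the gene itself was one of them, those nearest over the 6 group means were PRAF2 (r = 0.997) and ING4 (0.995) for PIK3IP1, PIK3IP1 itself and PRAF2 (both 0.991) for FOXO4, NPR3 (0.999) for FOXO3 and MCAM (0.984) for CCNG2. TXNIP was nearest to DDX60 (0.928), OAS2 (0.927) and IFI44L (0.926), all interferon-induced genes, and SESN3 had its nearest at 0.847 (SLPI), with the next at 0.710 (PGAP1).

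Other genes known to be restrained by AKT or switched on by FOXO gave a mixed picture in NTC cells. Of 19 tested, 11 were higher with erlotinib, 4 lower and 4 did not pass, where 24.6% of all genes were higher and 25.4% lower. The list median was 0.19 beside -0.02 for all genes. This list too was chosen with earlier results known, so its counts and medians are descriptions only. KLHL24, a ubiquitin ligase adaptor, rose by 1.49 (SE 0.07, adjusted p = 2.01e-11), IGF1R, the IGF1 receptor, by 0.79 (adjusted p = 5.28e-10), and FBXO32, the atrophy ubiquitin ligase atrogin-1, by 0.73 (adjusted p = 2.85e-09). BNIP3, a mitophagy receptor also induced by low oxygen, fell by 0.70 (adjusted p = 2.12e-08). In N1 cells erlotinib gave 13 higher and 4 lower, where 31.7% of all genes were higher and 23.7% lower. In N3 cells it gave 11 higher and 4 lower, where the shares were 24.9% and 27.7%.

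After knockdown in DMSO, the same list gave 2 higher and 6 lower for N1, where 7.75% of all genes were higher and 6.97% lower, and 0 higher and 5 lower for N3, where the shares were 7.24% and 4.8%. The list medians, -0.04 and -0.06, lay near those of all genes, -0.04 and -0.02. MXI1, a MYC antagonist, was 0.33 lower with N1 (adjusted p = 6.16e-05), and KLHL24 was lower with both, by 0.36 (adjusted p = 0.00341) and 0.50 (adjusted p = 0.00014). PMAIP1, the BH3-only protein NOXA, was 0.43 higher with N1 (adjusted p = 0.00102). In erlotinib the counts were 5 higher and 5 lower for N1, where 11.9% of all genes were higher and 9.15% lower. For N3 they were 2 higher and 4 lower, where the shares were 7.93% and 10.5%. FBXO32 was 0.38 higher with N3 in erlotinib (adjusted p = 5.4e-05).

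The PI3K and AKT pathway itself was split with erlotinib in NTC cells, with 5 of 21 tested genes higher, 9 lower and 7 not passing (median -0.06). Of all genes, 24.6% were higher and 25.4% lower there (median -0.02). The docking proteins GAB2 and GAB1 rose by 0.63 (adjusted p = 1.6e-08) and 0.47 (adjusted p = 7.78e-07), and TSC1, a brake on mTORC1, by 0.57 (adjusted p = 1.11e-06). PHLPP1, a phosphatase that inactivates AKT, fell by 0.41 (adjusted p = 1.65e-05). After knockdown, N1 gave 2 higher and 1 lower in DMSO and 3 higher and 1 lower in erlotinib, where 14.7% and 21.1% of all genes passed. N3 gave 1 higher and 2 lower in DMSO and 3 higher and 3 lower in erlotinib, where 12% and 18.5% of all genes passed, with DEPTOR, an mTOR inhibitor, at 0.42 in N3 DMSO (adjusted p = 4.81e-05).

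Relatives of the 10 genes did not all follow them. ARRDC4, an α-arrestin related to TXNIP, was higher after both siRNAs like TXNIP, by 1.20 with N1 (adjusted p = 2.33e-07) and 0.87 with N3 in DMSO (adjusted p = 4.77e-06), and by 0.82 (adjusted p = 9.43e-06) and 0.36 (adjusted p = 0.00936) in erlotinib. Unlike TXNIP, ARRDC4 was lower in N3 than in N1 cells, by 0.33 in DMSO (adjusted p = 0.0171) and 0.45 in erlotinib (adjusted p = 0.0011), and erlotinib lowered it by 0.41 in NTC cells (adjusted p = 0.00116). PIK3R3, the p55γ subunit of PI3K, rose by 0.60 with erlotinib in NTC cells (adjusted p = 2.16e-10) and was lower after knockdown in erlotinib, by 0.32 with N1 (adjusted p = 8.06e-06) and 0.58 with N3 (adjusted p = 7.4e-09). CCNG1, encoding cyclin G1, fell by 0.24 with erlotinib (adjusted p = 0.00384) where its relative CCNG2 rose. Of the 8 relatives tested, 2 were higher with erlotinib in NTC cells, 3 lower and 3 did not pass. Of all genes, 24.6% were higher and 25.4% lower in that comparison.

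**Figure D4:**
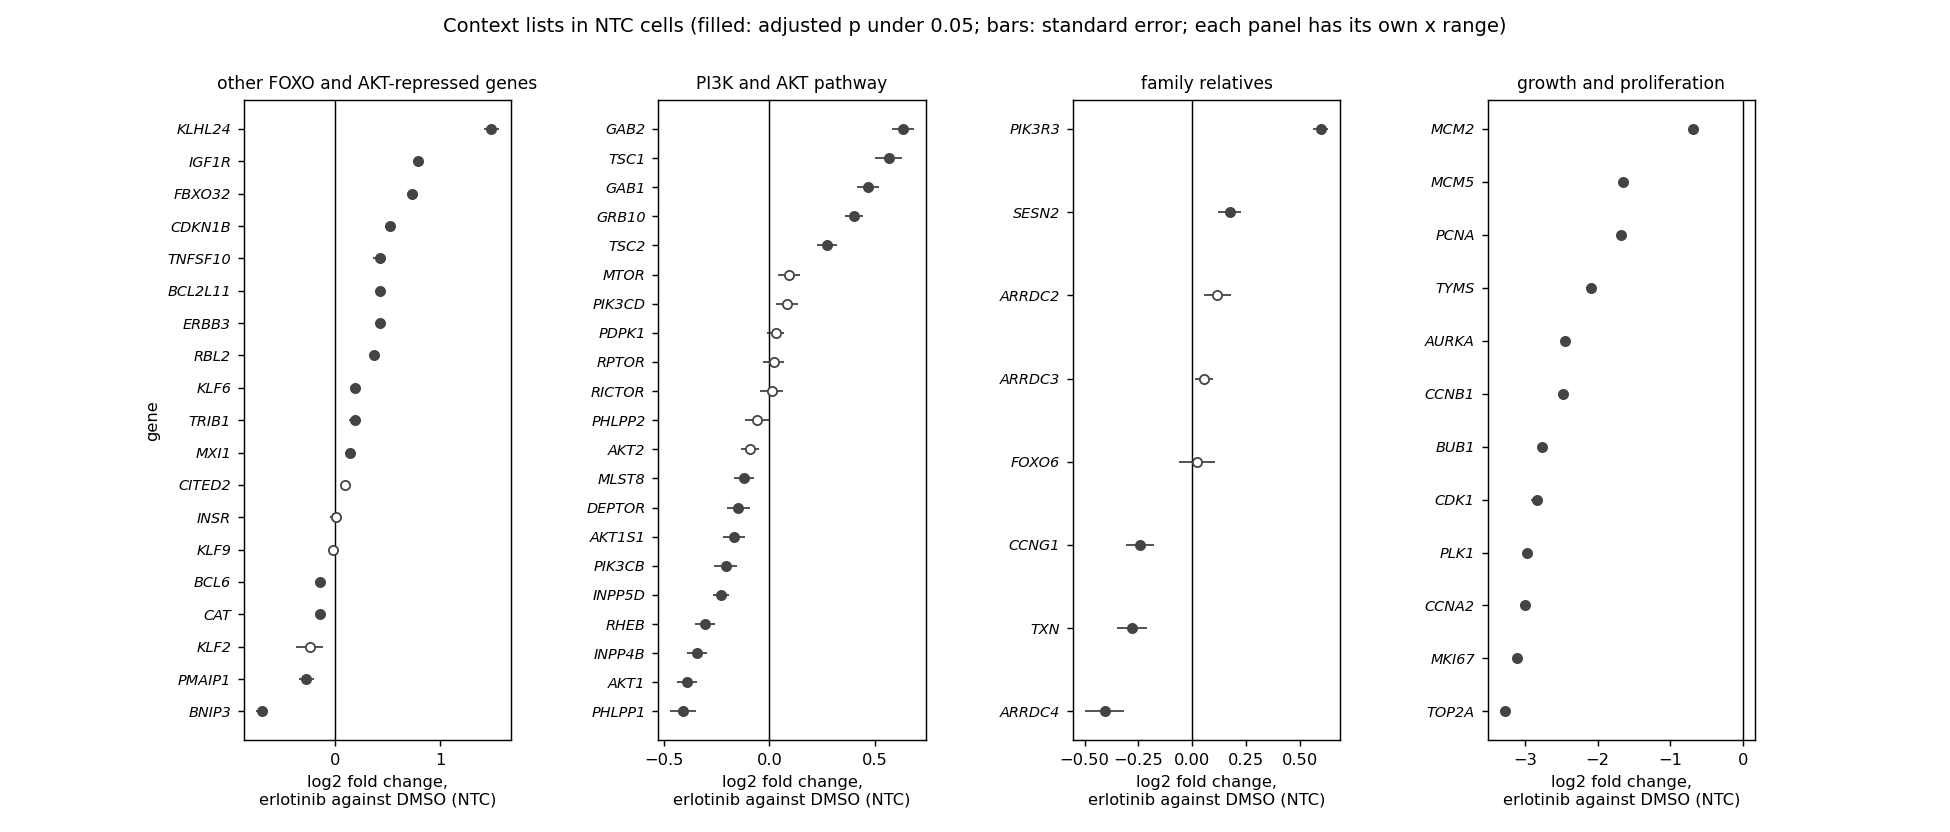
Log2 fold change of erlotinib against DMSO in NTC cells for the tested genes of 4 context lists, with standard errors, filled where the adjusted p was under 0.05. Each panel has its own horizontal range. KLHL24 is the highest of the FOXO list at 1.49, and all 12 proliferation genes lie below 0.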

How the data were processed

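HCC4006 RNA from 18 samples in 6 groups was hybridised to Affymetrix Human Transcriptome Arrays, and the deposited table holds log2 values that the authors made by RMA (background correction, quantile normalization and probe summary; version and annotation build not given in the sources used here), rounded to 2 decimals, for 70523 features. Groups came from the sample titles. The design text gives 5 days of erlotinib and the article 1 day more. Of the features, 23781 named 1 gene. The highest-mean feature stood for each gene, and genes above the 50th percentile of the array on at least 3 arrays were kept (16336). A linear model of the 6 group means was fitted to all 18 arrays in limma 3.58.1 (R 4.3.3), moderated by eBayes, with Benjamini-Hochberg adjustment over all genes, and every adjusted p in the text is limma's. A gene passed at an adjusted p under 0.05. The scripts were tested on simulated data.

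The members and lists were chosen with earlier results of these data known. List genes are named where they were among the 4 largest changes of their list that passed. The motifs and the likeness over group means are descriptions without a test. Same-numbered arrays were checked for shared deviations: among 10 pairs of groups, 1 (NTC DMSO and N1 DMSO) had correlations above 0.1 for all 3 numbers, and over all pairs they ran from -0.39 to 0.69. Alternatives were no filter, a 75th percentile filter, all features, only the compared arrays, quantile normalization, median centring, a trended robust eBayes, a replicate block, each array left out, and the thresholds of the study's methods. Precision was limited by 3 arrays a group.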

Additional observations from a re-analysis of the deposited data

Results flagged for a closer look

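In all, 5 results were picked out because the siRNA effect itself differed between erlotinib and DMSO in limma's test of the difference. For TXNIP the effect of N1 siRNA was 0.93 in DMSO and 0.62 in erlotinib, a difference of -0.31 (adjusted p = 0.00848), and that of N3 siRNA was 1.30 and 0.81, a difference of -0.49 (adjusted p = 0.000298). TXNIP stayed above NTC in all 4 knockdown groups, on every array. For SESN3 the N3 effect was 0.38 in DMSO and -0.14 in erlotinib, a difference of -0.52 (adjusted p = 0.000774), and the N1 effect was -0.37 and -0.67, a difference of -0.30 (adjusted p = 0.0243). For PIK3R1 the N1 effect was 0.07 in DMSO, where it did not pass (adjusted p = 0.364), and -0.17 in erlotinib, a difference of -0.24 (adjusted p = 0.0377). The N3 differences include the N3 erlotinib arrays numbered 4 to 6, whose handling cannot be told apart from the siRNA.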

How the results depend on the processing

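Changes of sign among called values were not seen under any alternative run. The erlotinib counts of 6 (NTC), 6 (N1) and 7 (N3) and the N3 count of 3 in DMSO stayed within 1.5 times under every alternative but the thresholds of the study's methods, under which the count was 0 in each comparison except N3 against NTC in DMSO (1, TXNIP). Other counts moved. N1 against NTC in DMSO gave 5, and 3 with median-centred arrays or only the compared arrays. N1 against NTC in erlotinib gave 5, and 2 with either of these settings, and the N1 difference between treatments gave 3, and 1 with either. Leaving out 1 array at a time gave 6 to 7, 6 to 7 and 7 to 8 for erlotinib in NTC, N1 and N3 cells, 3 to 5 and 3 to 3 for N1 and N3 in DMSO, 2 to 5 and 3 to 5 for N1 and N3 in erlotinib, 2 to 6 and 3 to 5 for N3 against N1 in DMSO and erlotinib, and 1 to 4 and 2 to 2 for the N1 and N3 differences. The count fell by over 1.5 times for N1 in DMSO without NTC DMSO replicate 1 or N1 DMSO replicate 3 (3 each), for N1 in erlotinib without NTC erlotinib replicate 3 (2), NTC erlotinib replicate 1 or N1 erlotinib replicate 1 (3 each), for N3 against N1 in DMSO without N1 DMSO replicate 3 or N3 DMSO replicate 2 (2 each), and for the N1 difference without N1 DMSO replicate 2 or 3, NTC erlotinib replicate 1 or 3, or N1 erlotinib replicate 1 (1 each). The causes were not tested.

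With the replicate number as a block over the 15 arrays numbered 1 to 3, N1 against NTC in DMSO gave 3, since FOXO4 (adjusted p = 0.0603) and CCNG2 (adjusted p = 0.0579) no longer passed. A block over the 6 arrays of that comparison alone, chosen after seeing the data because only these groups' same-numbered arrays deviated together, gave 5, the same genes as without it. No comparison with N3 erlotinib could be blocked because its replicate numbers are its own. The 15-array block also made IRS2 pass as lower with erlotinib in NTC cells (adjusted p = 0.00952), which gave 6 higher and 1 lower, made IRS2 pass for N1 in erlotinib (0.0351), and lost CCNG2 there (0.0869), FOXO4 for N3 against N1 in DMSO (0.0715) and PIK3R1 for the N1 difference (0.0576). It moved no other count by over 1.5 times. Centring each array on its median moved the median of all genes by up to -0.10 (erlotinib in N3 cells) and the share of higher among all calls from 49.2% to 37.6%, 57.2% to 37.7% and 47.3% to 29.3% for erlotinib in NTC, N1 and N3 cells, from 52.6% to 75.8% and 60.1% to 76.2% for N1 and N3 in DMSO, from 39.8% to 28.4% for N3 against N1 in erlotinib, and from 27.7% to 14.3% for the N3 difference. With 3 arrays a group, the changes under 0.2 of FOXO3, FOXO4, CCNG2 and PIK3R1 after N1 siRNA were among those whose calls often depended on a setting or an array.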
